A study of Mus musculus with 4 samples.

Results

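ABC transporters are membrane proteins that use ATP, bound by a conserved ATP-binding cassette, to move substrates across a membrane. Members were the non-control probes on a mouse expression array whose listed gene name begins with Abca, Abcb, Abcc, Abcd, Abce, Abcf or Abcg and then a number, with Abca1, Abcg5 and Abcg8 left out. This gave 93 probes for 47 genes, out of 41174 probes for 27734 gene names. Of the 47 genes, 25 had a probe that stood well above background on 2 or more of the 4 arrays (33 probes) and were tested, among 12446 genes tested in all. The other 22 genes fell below this filter, 19 of them on no array and 3 on 1 array each.

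The samples were total RNA from freshly isolated cells of the mouse small bowel, described by the submitters as enterocytes. WT mice (2 samples) were compared with their IKKb(EE)IEC littermates (2 samples). IKKb is a kinase that switches on NF-kB, EE marks a version of it that is always active, and IEC stands for intestinal epithelial cells. The submitters called the samples of a group biological replicates. Not given in the sources used here are the number, age and sex of the mice behind each sample, the strain, and the promoter that drives the transgene. The comparison asks which transcripts differ between the genotypes, here for the ABC transporters.

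ABC proteins are grouped into subfamilies by sequence. In the gut epithelium, P-glycoprotein, ABCG2 and ABCC2 sit on the apical membrane and return drugs, toxins and conjugates to the lumen, while ABCC3 and other multidrug resistance-associated proteins sit on the basolateral membrane and export toward blood. Other members serve mitochondria, peroxisomes or lysosomes, and the ABCE and ABCF proteins span no membrane and act in translation.

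Each array was read with 1 dye, and values are given as normalized log2 signal, in which 0 is the 75th percentile of the array. A difference is IKKb(EE)IEC minus WT on that scale, with its standard error (SE), from limma fitted to all 12446 genes. A gene was called higher or lower at a Benjamini-Hochberg adjusted p below 0.05. In each list of values the WT pair comes before the IKKb(EE)IEC pair, with replicate 1 before replicate 2. Different probes bind with different strength, so the level of a gene was not set against that of another gene. In cells taken in bulk, fewer cells of a type and less RNA per cell cannot be told apart.

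Between 34.3% and 36.0% of spots were well above background on the WT arrays and between 40.8% and 41.1% on the IKKb(EE)IEC arrays. All 4 arrays shared 1 slide and 1 scan, with WT in positions 1 and 2 and IKKb(EE)IEC in positions 3 and 4, so position and genotype cannot be told apart. Ikbkb, the gene of the kinase, read -0.72 and -0.27 in WT against 0.33 and 0.34 in IKKb(EE)IEC (difference 0.83 ± 0.21, limma adjusted p = 0.0551), and the array does not tell the transgene from the endogenous gene. All 15 enterocyte markers were well above background on every array. Of these, 3 fell (Fabp1, Fabp2 and Lct), 1 rose (Anpep) and the others were not called. Their summed linear level was 13602 and 14431 in WT against 6908 and 6921 in IKKb(EE)IEC. Fabp1 and Fabp2 held most of that sum in WT. Fabp2 read log2 12.67 and 13.19 in WT against 11.33 and 11.405 in IKKb(EE)IEC. Fabp1 read 12.09 and 11.33 in WT against 10.43 and 10.28 in IKKb(EE)IEC. The summed goblet cell markers read 6961 and 8568 in WT against 4206 and 4508 in IKKb(EE)IEC, with 1 of 7 called lower. Markers of other cells also moved with genotype: 6 of 10 tested macrophage and dendritic cell markers were higher and none lower, with a summed linear level of 8.95 and 10.5 in WT against 31.7 and 24.9 in IKKb(EE)IEC. Of the 11 on the array, 7 were not well above background on each WT array and 1 on each IKKb(EE)IEC array. Paneth cell markers were lower in 5 of 6. None of 9 tested T and NK cell markers was called. The summed pancreas acinar markers read 456 and 200 in WT against 28.2 and 31.2 in IKKb(EE)IEC. Clps held most of that sum in WT (log2 8.78 and 7.52 against 3.94 and 4.33 in IKKb(EE)IEC). It was the 1 called, lower, of 3 tested among 9 on the array. The summed liver markers read 35.5 on WT replicate 2 against 2.21 to 5.51 on the other arrays. The part of these cells in the results below was not tested.

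In IKKb(EE)IEC, 7 ABC transporter genes rose: Abcb1b, Abcb4, Abcc1, Abcc2, Abcc5, Abcc8 and Abca3. Abca16 alone fell, and the remaining 17 were not called. Of all genes tested, 7.97% were called higher and 7.17% lower (15.1% in either direction). Higher calls were 52.7% of all calls, and 63.2% after scaling to the median and 72.1% after normexp background correction, where the ABC genes gave 8 higher and 2 lower and 10 higher and 1 lower. The median difference was 0.33 over the 25 ABC genes and -0.12 over all genes. Both IKKb(EE)IEC arrays lay above both WT arrays for 14 ABC genes and below them for 5, and the groups overlapped for 6. Among all genes, 28.3% were separated upward and 40.9% downward (69.1% in either direction). The median difference was 0.15 over the 19 ABC genes that all 4 arrays measured well above background, with 4 called higher and 1 lower. The other called genes were dim in WT: Abcb1b was well above background on 1 WT array, and Abcc1 and Abcc5 on none. A separate fit took only genes well above background on all 4 arrays (10320 genes). It called 18.7% of them, with 40.0% of the calls higher and a median difference of -0.17. Of the 19 ABC genes, that fit called 4 higher and 2 lower. Abcc1, Abcc5, Abcb8 and Abcc4 passed the filter through the IKKb(EE)IEC arrays alone, which tilts the counts and the median over the 25 genes upward.

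**Figure D1:**
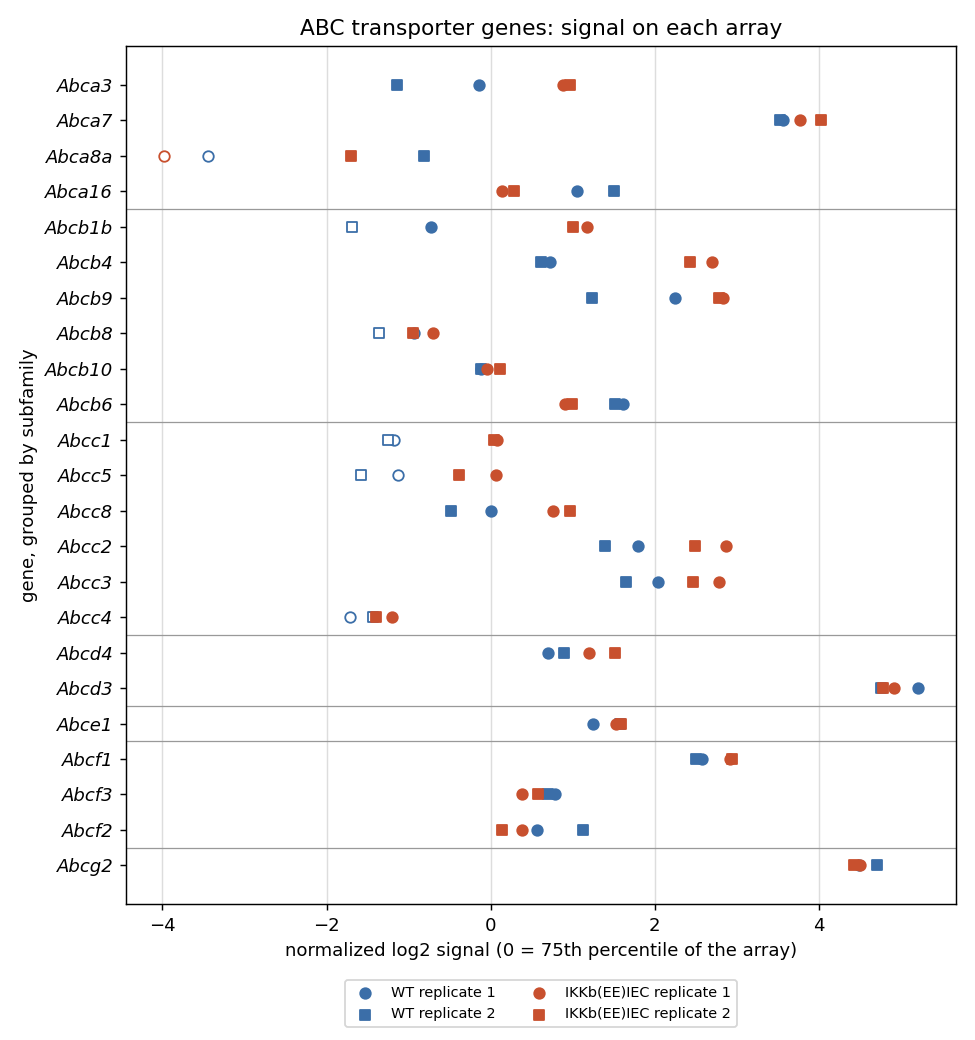
Normalized log2 signal (x axis, 0 is the 75th percentile of the array) of 23 of the 25 tested ABC transporter genes (y axis, by subfamily) on each of the 4 arrays. Blue marks WT and red IKKb(EE)IEC, circles replicate 1 and squares replicate 2, and open symbols are not well above background. The pairs of Abcb4 and Abcc1 stand apart, while the points of Abcg2, Abce1 and Abcd3 overlap between genotypes.

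The ABCB subfamily held the largest differences among the ABC genes tested. Of its 7 tested genes, 2 rose and none fell. Abcb4 encodes the floppase that moves phosphatidylcholine to the outer leaflet, best known from the bile canaliculus of the liver. Abcb4 read 0.73 and 0.61 in WT against 2.70 and 2.42 in IKKb(EE)IEC. Each genotype's arrays lay close together and the groups were far apart. The difference was 1.89 ± 0.18 (SE), or 3.71-fold, with a limma adjusted p of 0.00506.

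Abcb1b encodes a rodent form of P-glycoprotein, the multidrug efflux pump. Abcb1b read -0.72 and -1.69 in WT against 1.17 and 1.01 in IKKb(EE)IEC, with WT replicate 2 not well above background. Both IKKb(EE)IEC arrays lay above both WT arrays, and the WT arrays were further from each other than the IKKb(EE)IEC arrays. The difference was 2.30 ± 0.34 (SE), or 4.92-fold, with a limma adjusted p of 0.0165. Another probe for Abcb1b, at chr5:8867447-8867506, read -0.75 and -0.60 in WT against -0.18 and -0.39 in IKKb(EE)IEC. It showed a smaller difference, 0.39 ± 0.18, and was not called when every probe was tested on its own (limma adjusted p = 0.179). Averaging both probes gave a difference of 1.34, which was still called. Abcb1a, the near-identical form of P-glycoprotein that predominates in mouse intestine, was well above background on IKKb(EE)IEC replicate 1 only and was not tested. How far the probes of these close copies share signal was not tested.

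Abcb1a, Abcb1b and Abcb4 lie side by side on chromosome 5. In the mm8 build listed by the array files, the probe that represents Abcb1b lies at chr5:8871931-8871990 and that for Abcb4 at chr5:8965114-8965173, both on the plus strand. In RefSeq gene order (GRCm38.p6) the run is Rundc3b, Abcb1a, Abcb1b, Abcb4, Crot and Tmem243. Crot, a peroxisomal carnitine acyltransferase next to Abcb4, read 3.26 and 3.57 in WT against 2.02 and 1.92 in IKKb(EE)IEC, and it fell by 1.45 ± 0.19 (limma adjusted p = 0.0123). Rundc3b (difference -0.15) and Tmem243 (difference 0.15) were not called. A rise was called at Abcb1b and Abcb4 and not at the tested genes on either side. 

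The 250 bases before the RefSeq start sites of Abcb1b (chr5:8797897-8798146) and Abcb4 (chr5:8893471-8893720), both on the plus strand of GRCm38.p6, are shown because these neighbours rose together. Those of Abcc2 (chr19:43782058-43782307, plus strand) and Abca16 (chr7:120409397-120409646, plus strand) are shown for comparison, as an apical pump that rose and the gene that fell. Capitals mark each GC box (GGGCGG) and CCAAT box (CCAAT), on either strand, so a CCAAT box on the other strand reads ATTGG.
Abcb1b: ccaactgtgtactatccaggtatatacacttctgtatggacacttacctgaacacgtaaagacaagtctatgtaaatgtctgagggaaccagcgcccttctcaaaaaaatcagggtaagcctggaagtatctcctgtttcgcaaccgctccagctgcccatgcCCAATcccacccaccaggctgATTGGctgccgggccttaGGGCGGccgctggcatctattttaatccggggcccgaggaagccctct
Abcb4: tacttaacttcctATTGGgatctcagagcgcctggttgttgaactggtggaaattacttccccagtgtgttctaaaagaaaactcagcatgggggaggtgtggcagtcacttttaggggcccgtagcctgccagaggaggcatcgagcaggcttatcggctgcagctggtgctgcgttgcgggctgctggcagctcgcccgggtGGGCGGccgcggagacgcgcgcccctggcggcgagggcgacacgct
Abcc2: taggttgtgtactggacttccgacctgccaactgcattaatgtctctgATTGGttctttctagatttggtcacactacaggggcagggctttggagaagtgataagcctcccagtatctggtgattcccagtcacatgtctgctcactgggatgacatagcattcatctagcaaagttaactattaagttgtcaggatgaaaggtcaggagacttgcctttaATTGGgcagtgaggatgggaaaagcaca
Abca16: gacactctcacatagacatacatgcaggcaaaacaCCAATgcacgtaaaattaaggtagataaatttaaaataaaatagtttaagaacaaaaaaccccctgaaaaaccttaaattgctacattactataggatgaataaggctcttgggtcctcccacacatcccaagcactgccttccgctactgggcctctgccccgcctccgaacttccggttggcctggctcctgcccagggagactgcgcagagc

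The windows searched ran from 250 bases before to 50 after a start site and came from RefSeq, which held 1 or more for 35 of the 47 genes, 18 of the 25 tested and 6 of the 8 called. In Abcb1b, counting the last base before the start as -1, the GC box lies at -48 to -43 and the CCAAT boxes at -87 to -83 and -66 to -62. In Abcb4 the GC box lies at -46 to -41 and the CCAAT box at -237 to -233. A GC box was found in 3 of the 5 windows of genes called higher (Abcb1b, Abcb4 and Abca3) and in 35.7% of all 32851 windows. It was also found in 10 of the 17 windows of tested ABC genes not called. A CCAAT box was found in 3 of the 5 (Abcb1b, Abcb4 and Abcc2), in 6 of those 17 and in 37.4% of all windows. The NF-kB consensus was found in none of the 5, in windows of 3 tested ABC genes that were not called (Abcd3, Abcf2 and Abcg2) and in 8.46% of all windows. Abcc2 alone among the 5 held the antioxidant response element core TGACNNNGC, which 12.4% of all windows hold. None of the 5 held an E-box (CACGTG, 7.15% of all windows), an AP-1 site (TGACTCA or TGAGTCA, 5.20%), a xenobiotic response core (TNGCGTG, 5.07%) or a TATA box (TATAAA, 13.6%). All letters were searched on both strands, overlaps between motifs were allowed, and no marked boxes overlap in the windows shown. These are matches of letters, not sites shown to be bound.

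Abcb9, a lysosomal peptide transporter related to TAP, read 2.25 and 1.23 in WT against 2.83 and 2.78 in IKKb(EE)IEC. The groups did not overlap, yet WT replicate 2 lay far below WT replicate 1, and the difference of 1.07 ± 0.35 was not called (limma adjusted p = 0.0887). It was called when the arrays were scaled to their median (1.12, limma adjusted p = 0.00568). That fit gave the ABC genes a common SE of 0.32, so its p does not measure the spread of Abcb9 itself.

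The remaining tested ABCB genes serve mitochondria or haem metabolism, and none was called. Abcb6, a porphyrin transporter, read 1.62 and 1.52 in WT against 0.91 and 0.99 in IKKb(EE)IEC, a difference of -0.62 ± 0.17 that just missed the threshold (limma adjusted p = 0.0594). The pairs were tight and did not overlap. Abcb8, of the mitochondrial inner membrane, was well above background on neither WT array and read -0.93 and -1.36 in WT against -0.70 and -0.94 in IKKb(EE)IEC. The groups overlapped, and the difference of 0.33 ± 0.22 was not called (limma adjusted p = 0.312).

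Abcb10, needed for haem synthesis in mitochondria, had probes that disagreed. The brighter probe read -0.11 and -0.11 in WT against -0.04 and 0.11 in IKKb(EE)IEC, a difference of 0.15 ± 0.17 that was not called (limma adjusted p = 0.535). The other read -0.04 and 0.27 in WT against -0.70 and -0.68 in IKKb(EE)IEC, a difference of -0.81 ± 0.19 that passed when every probe was tested on its own (limma adjusted p = 0.0477). The brighter probe lies at chr8:126868306-126868365 and the other at chr8:126839191-126839250 (mm8, minus strand). Abcb10 was the only 1 of 8 ABC genes with more than 1 tested probe whose probes differed in sign. Of 27 tested genes of haem synthesis and iron-sulphur assembly, 1 was called higher and 1 lower, beside 7.97% and 7.17% over all genes tested. Alas1, which makes the precursor of haem, rose by 1.46 and Slc25a37, a mitochondrial iron importer, fell by 0.74. The median over these genes was -0.11.

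**Figure D2:**
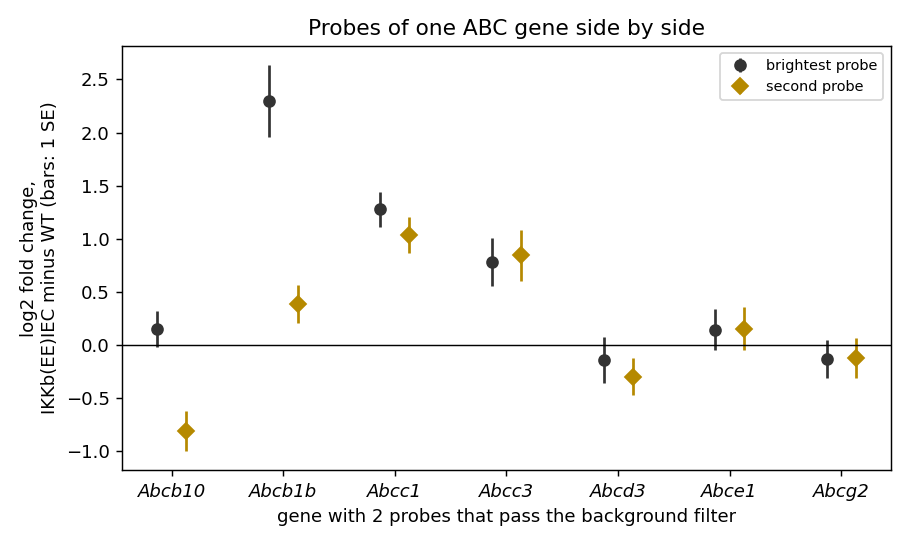
Log2 fold change, IKKb(EE)IEC minus WT (y axis, bars 1 SE of limma), of each probe of 7 of the 8 ABC transporter genes (x axis) with 2 probes past the background filter, the brighter as black circles and the other as ochre diamonds. The probes of Abcc1 and Abcc3 lie close together, those of Abcb1b differ in the size of the difference (2.30 against 0.39), and those of Abcb10 differ in sign.

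In the ABCC subfamily, Abcc1, Abcc2, Abcc5 and Abcc8 rose and no tested gene fell. Of the 6 tested genes, Abcc1, Abcc4 and Abcc5 were well above background on the IKKb(EE)IEC arrays only, so they could enter the test only where IKKb(EE)IEC was the brighter group. Of the 3 that were well above background on all 4 arrays, 2 rose (Abcc2 and Abcc8), and all 3 had both IKKb(EE)IEC arrays above both WT arrays. The other 4 ABCC genes, Abcc6, Abcc9, Abcc10 and Abcc12, were well above background on no array.

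Abcc2 encodes MRP2, the apical exporter of glutathione, glucuronide and sulphate conjugates. It read 1.80 and 1.40 in WT against 2.86 and 2.49 in IKKb(EE)IEC. On both genotypes replicate 1 was the higher, and the lower IKKb(EE)IEC array was still above the higher WT array. The difference was 1.08 ± 0.23 (SE), or 2.11-fold (limma adjusted p = 0.0392), at a probe at chr19:43890900-43890959 (mm8). Abcc3, its basolateral relative MRP3, read 2.04 and 1.64 in WT against 2.78 and 2.46 in IKKb(EE)IEC. The groups did not overlap, but the difference of 0.78 ± 0.22 was not called (limma adjusted p = 0.0672). Another Abcc3 probe gave a like difference of 0.85 ± 0.24, also not called.

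Abcc1 encodes MRP1, a basolateral exporter of glutathione conjugates, leukotrienes among them, that many cell types carry. It read -1.18 and -1.26 in WT, not well above background on either array, and 0.07 and 0.05 in IKKb(EE)IEC. Both pairs were tight and lay apart. Abcc1 read 2.43-fold higher in IKKb(EE)IEC (difference 1.28 ± 0.16, limma adjusted p = 0.0115), a fold that rests on WT values not well above background. Another probe, which overlaps the first on the genome (chr16:14387042-14387101 and chr16:14387083-14387142, mm8), gave 1.04 ± 0.17 and shares part of the same sequence.

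Abcc5 encodes MRP5, an exporter of cyclic nucleotides and nucleotide analogues. It read -1.12 and -1.59 in WT, again not well above background, and 0.06 and -0.38 in IKKb(EE)IEC. The groups did not overlap. Abcc5 read 2.28-fold higher in IKKb(EE)IEC (difference 1.19 ± 0.25, limma adjusted p = 0.0382), which likewise rests on dim WT values. The call was lost with normexp background correction (0.33, limma adjusted p = 0.129) and with the authors' value table (0.40, limma adjusted p = 0.0588). Abcc4, which exports cyclic nucleotides and prostaglandins, was likewise not well above background in WT and read -1.72 and -1.43 there against -1.21 and -1.39. The groups came close to each other and the difference of 0.28 ± 0.19 was not called (limma adjusted p = 0.324). It was -0.040 with normexp background correction.

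Abcc8 encodes SUR1, which is not a pump but the regulatory subunit of ATP-sensitive potassium channels, known from pancreatic beta cells and other endocrine cells. It read 0.01 and -0.49 in WT against 0.76 and 0.97 in IKKb(EE)IEC. All 4 arrays were well above background and the groups did not overlap. The difference was 1.10 ± 0.23 (SE), or 2.15-fold (limma adjusted p = 0.0372). The files list only 9 aligned bases for this probe on chromosome 7. Another Abcc8 probe was well above background on no array. Kcnj11, the pore subunit that pairs with SUR1 and the next gene on the chromosome, was below the filter. Of 13 tested enteroendocrine markers, a list chosen after the Abcc8 value was seen, none was called higher and 1 lower (Nts, the neurotensin gene, fell by 1.27), with a median of -0.38. Over all genes tested, 7.97% were called higher and 7.17% lower.

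**Figure D3:**
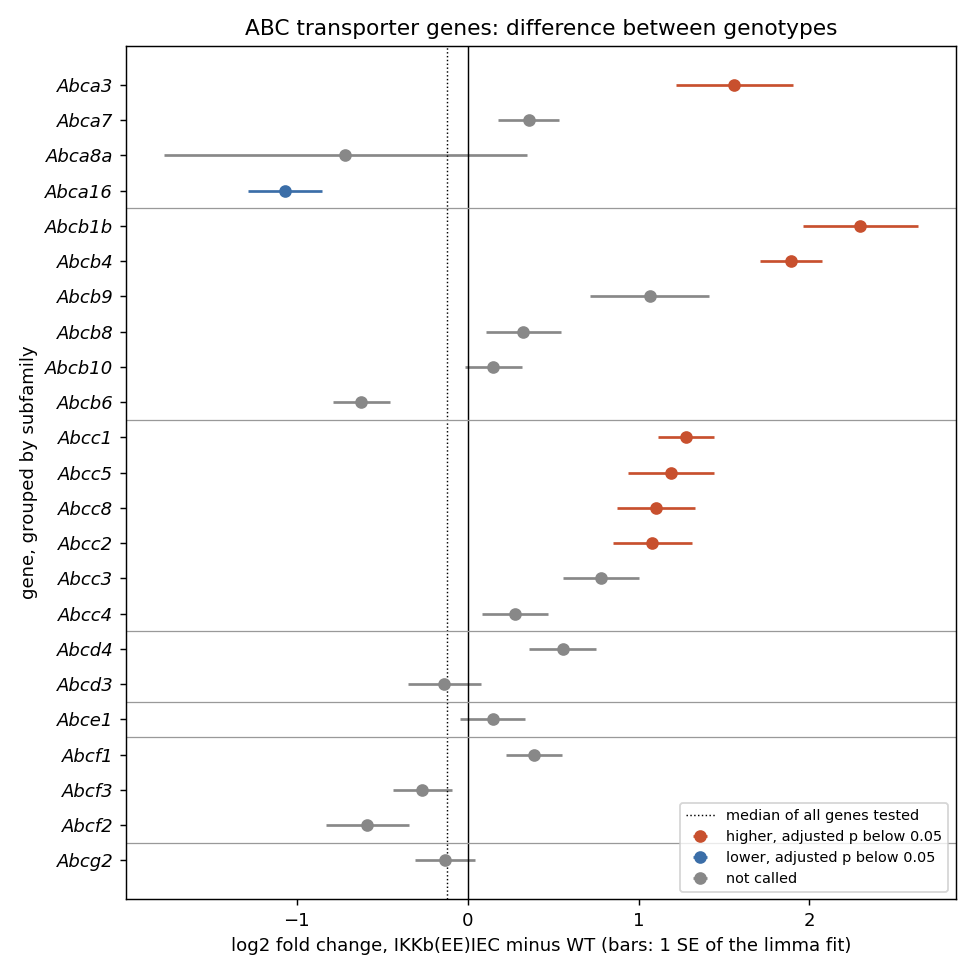
Difference in normalized log2 signal, IKKb(EE)IEC minus WT (x axis), with bars of 1 limma SE, for 23 of the 25 tested ABC transporter genes (y axis, by subfamily). Red and blue genes were called higher and lower, grey genes were not called, and the dotted line is the median of all genes tested, -0.12. The 6 ABCC genes lie between 0.28 and 1.28, 3 of them (Abcc1, Abcc4 and Abcc5) tested only through their IKKb(EE)IEC signal, and Abcb1b lies furthest right at 2.30.

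ABCA proteins are large lipid transporters, and 4 of the 15 genes on the array were tested. Abca3, which loads phospholipid into the lamellar bodies of lung alveolar cells, read -0.14 and -1.14 in WT against 0.88 and 0.96 in IKKb(EE)IEC. The IKKb(EE)IEC arrays agreed closely and lay above both WT arrays, which were further from each other. The difference was 1.56 ± 0.34 (SE), or 2.95-fold (limma adjusted p = 0.0409), at 1 of 4 Abca3 probes. The other probes were well above background on no array. Abca7, a phospholipid transporter linked to phagocytosis, read 3.56 and 3.52 in WT against 3.77 and 4.03 in IKKb(EE)IEC. The groups did not overlap and the difference of 0.36 ± 0.18 was not called (limma adjusted p = 0.199).

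Abca16 fell. It belongs to a cluster of closely related genes with Abca14 and Abca15 on chromosome 7, both below the filter. It read 1.05 and 1.51 in WT against 0.14 and 0.28 in IKKb(EE)IEC. Both IKKb(EE)IEC arrays lay below both WT arrays. Signal was 2.09-fold higher in WT (difference -1.07 ± 0.22, limma adjusted p = 0.0362). The probe at chr7:120332447-120335202 (mm8) covers a genomic span of 2756 bases, more than a probe's own length. Whether transcripts of the related genes bind it was not tested.

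Abca8a was measured on replicate 2 of each genotype only. It read -3.44 and -0.81 in WT against -3.98 and -1.70 in IKKb(EE)IEC, so the replicates differed more than the genotypes (difference -0.72 ± 1.06, limma adjusted p = 0.642). The remaining 11 ABCA genes were below the filter: Abca2, well above background on WT replicate 1 only, and Abca4, Abca5, Abca6, Abca8b, Abca9, Abca12, Abca13, Abca14, Abca15 and Abca17 on no array.

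ABCD proteins import fatty acids and their derivatives into peroxisomes, except ABCD4, which acts in lysosomal cobalamin export. None of the 3 tested genes was called. Abcd3, the major peroxisomal membrane protein of this family, read 5.21 and 4.76 in WT against 4.91 and 4.78 in IKKb(EE)IEC, with overlapping groups. Abcd4 read 0.70 and 0.90 in WT against 1.20 and 1.52 in IKKb(EE)IEC, without overlap, and was not called (0.56 ± 0.20, limma adjusted p = 0.102). Abcd2 was below the filter. Of 23 tested genes of peroxisomal oxidation and import, none rose and 3 fell, beside 7.97% called higher and 7.17% lower over all genes tested. Slc27a2 and Scp2, which act on fatty acids, fell by 1.12 and 1.01, and Pex5, the import receptor, by 0.73.

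The ABCE and ABCF proteins work with ribosomes, and none of the 4 tested genes was called. Abce1, which splits ribosomes after termination, read 1.25 and 1.57 in WT against 1.53 and 1.58 in IKKb(EE)IEC, with overlapping groups. Abcf1, which binds initiation factor eIF2, read 2.58 and 2.50 in WT against 2.91 and 2.94 in IKKb(EE)IEC. The pairs were tight and did not overlap, and the difference of 0.39 ± 0.16 was not called (limma adjusted p = 0.144). Abcf2 (difference -0.59 ± 0.24) and Abcf3 (difference -0.26 ± 0.17) had both IKKb(EE)IEC arrays below both WT arrays and were not called. Among 15 tested genes of ribosome recycling and release, 1 was called higher and 1 lower, beside 7.97% and 7.17% over all genes tested. Pelo, the partner of Abce1 in rescuing stalled ribosomes, rose by 0.71. Gcn1, a sensor of stalled ribosomes, was not well above background in IKKb(EE)IEC. It read 3.13-fold lower there, a fold that rests on those dim values.

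Abcg2, the apical breast cancer resistance protein and an exporter of urate and many drugs, was the only ABCG gene tested. It read 4.49 and 4.71 in WT against 4.51 and 4.43 in IKKb(EE)IEC. The groups overlapped and the difference of -0.13 ± 0.18 was not called (limma adjusted p = 0.597). Of the pumps on the apical membrane, then, Abcb1b (at 1 of its 2 tested probes) and Abcc2 rose and Abcg2 was not called. Abcb1a, the form of P-glycoprotein that predominates in mouse intestine, could not be tested. The difference between Abcb1b, Abcc2 and Abcg2 was not tested. Abcg1, Abcg3 and Abcg4 were above background on no array. In the ABCB subfamily the genes below the filter were Abcb1a, Abcb11, the bile salt export pump, which was well above background on WT replicate 2 only, and Abcb5.

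ABC proteins under other symbols were read beside these. Tap2, a subunit of the peptide transporter that loads MHC class I, read -0.21 and -0.15 in WT against 0.92 and 0.78 in IKKb(EE)IEC. Both IKKb(EE)IEC arrays lay above both WT arrays, and Tap2 rose by 1.03 ± 0.17 (limma adjusted p = 0.0212). Tap1, its partner subunit, was below the filter, and Cftr, the chloride channel of the ABCC family, was not called (0.54, limma adjusted p = 0.194).

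Genes that act with the transporters moved in both directions. The counts in this and the next lists stand beside 7.97% called higher and 7.17% lower over all genes tested. Of 23 tested regulators of transporter genes, 4 rose and 1 fell, with a median of 0.21. Among those that rose, Ahr, the receptor for aryl hydrocarbons, well above background on only 1 WT array, rose by 2.56, Srebf2, the regulator of cholesterol synthesis, by 1.73 and Keap1, which holds NRF2 in check, by 1.16. Hnf4g fell by 0.97. Nuclear receptors that control ABC genes, such as Nr1i2 (PXR), Nr1i3 (CAR) and Nr1h4 (FXR), were tested and not called, as was Nfe2l2 (NRF2).

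Of 20 tested carriers of drugs and organic ions, not all of them uptake carriers, 2 rose and 4 fell. Slco3a1, an organic anion carrier, rose by 4.05, with only 1 WT array well above background, from -0.66 and -1.11 in WT to 3.105 and 3.24 in IKKb(EE)IEC. Slc22a5, the carnitine carrier, rose by 1.24. Slc47a1, an exporter of organic cations, fell by 2.01 and Slc28a2, a nucleoside carrier, fell by 1.62. Of 17 tested genes of glutathione synthesis and recycling, Anpep and Ggt6, which act on glutathione outside the cell, rose by 1.10 and 0.78, and Gclm, a subunit of the enzyme that limits its synthesis, fell by 1.33.

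Of 14 tested apical scaffolds and linkers, Cdhr5 and Ezr (ezrin), both of the brush border, rose by 0.94 and 0.71, and Myo5b, the motor of apical recycling, fell by 0.82. Of 22 tested genes of lysosomal and lamellar lipid handling, none rose, and Lipa, the acid lipase, and Lamp2 fell by 0.93 and 0.74. Of 22 tested genes of sphingolipid and phospholipid supply, 3 rose and 1 fell. Cers6 and Elovl7 rose by 1.21 and 1.03, and Sgms2, not well above background in WT, read 1.65-fold higher. Pcyt1a, which limits phosphatidylcholine synthesis, fell by 1.26.

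With 2 samples in each genotype, the calls rest on few arrays. With a WT array left out, the spread within a genotype comes from the tighter IKKb(EE)IEC pair, so calls in these fits were not read as holding. The differences without WT replicate 1, then without WT replicate 2, were 1.95 and 1.83 for Abcb4 and 2.78 and 1.81 for Abcb1b. They were 1.32 and 1.24 for Abcc1, 1.28 and 0.88 for Abcc2, and 1.42 and 0.96 for Abcc5. For Abcc8 they were 1.35 and 0.86, for Abca3 2.06 and 1.06, and for Abca16 -1.30 and -0.84. Without IKKb(EE)IEC replicate 1 no ABC gene was called, and Abcb4 had a difference of 1.76 (limma adjusted p = 0.0593). Without IKKb(EE)IEC replicate 2 only Abcb4 was called. Among all genes, 247 and 330 were then called, against 1884 with all arrays, and the log2 signals of the IKKb(EE)IEC arrays correlated more closely with each other (r = 0.994 across genes) than those of the WT arrays did (r = 0.978). The differences of the 8 genes kept their direction in all of these fits. Under normexp background correction and in the authors' value table the differences of all 8 genes were smaller: Abcb4 read 1.62 and 1.31, Abcc2 1.06 and 0.78, Abcb1b 0.97 and 0.82, Abca3 0.86 and 0.77, Abcc1 0.43 and 0.39, Abca16 -0.60 and -0.57, and Abcc8 0.75 and 0.56, each still called.

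**Figure D4:**
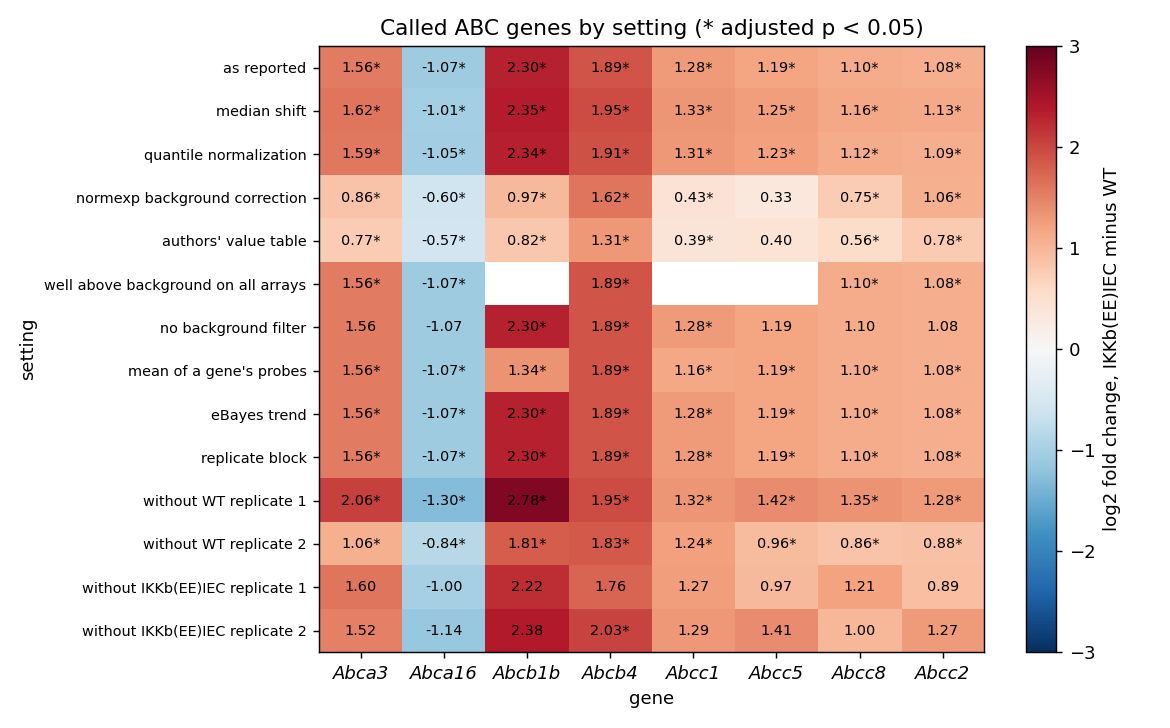
Difference in normalized log2 signal, IKKb(EE)IEC minus WT (cell colour and number), of the 8 called ABC transporter genes (columns) under each processing setting (rows), with a star where the adjusted p was below 0.05 and blank where the gene was not tested. Abca3, Abca16, Abcc2, Abcc5 and Abcc8 lack a star with no background filter. Abcc5 also lacks one under normexp correction and in the authors' value table. No gene changes direction, and stars are missing for all 8 genes without IKKb(EE)IEC replicate 1 and for all but Abcb4 without replicate 2.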

How the data were processed

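The authors hybridised Cy3-labelled RNA to 1-colour Agilent arrays, 2 for each genotype, and the deposited scanner files hold spot intensity and background flags (code 0 or 1, "well above background") made, per the file headers, by version 9.5.3.1 of Agilent's Feature Extraction software. The authors' deposited value table holds intensity values for 40913 probes, with medians of 111.5 to 112 per array, with scaling not given in the sources used here. Its values rank like the mean spot signal (Spearman 0.996 to 0.997), on a linear scale.

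The processed signal, already background-subtracted, was put on the log2 scale and the 75th percentile of each array was subtracted. Spots of a probe were averaged, control spots left out, and each gene was represented by its brightest probe among those well above background on at least 2 arrays. limma 3.58.1 (R 4.3.3, lmFit and eBayes, prior df 3.51) was fitted to 12446 genes, with Benjamini-Hochberg adjustment and a threshold of 0.05, and was first tested on simulated data. The number of arrays limits the precision. RefSeq accessions named 24375 probes, 4647 took the name of another probe with the same listed name, and 12152 kept the listed name. The accession match changed 4783 names. No ABC name changed.

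Some called genes were measured well above background on neither array of a genotype. Their fold is the brighter group's mean against the dimmer group's. Each dim value was to be raised to the lowest signal well above background on its array where it was below that. No value of Abcc1, Abcc5, Sgms2 or Gcn1 was below it, so their folds are those of the values as read and set no lower bound. Every tested ABC gene is named except 2 that are not reported here, with full statistics for those called, and up to 4 called genes from each other list (1 regulator is likewise not reported here). The members and lists were chosen with earlier results of these data known. The alternatives were median, quantile and normexp (offset 50) scaling or correction, the authors' table, other filters and probe rules, a variance trend, a replicate block and each array left out. In the normexp correction, 13 outlying local backgrounds were replaced by the array's median. The median-scaled fit gave the ABC genes a common SE of 0.32, so its calls do not reflect the spread of single genes.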

Additional observations from a re-analysis of the deposited data

How the results depend on the processing

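With 7 ABC genes called higher and 1 lower, the count of higher calls was 4 when a probe had to be well above background on all arrays (19 genes tested) and 4 with no background filter (47 genes tested), and it ran from 0 to 10 when each array was left out in turn. The count of lower calls was 2 under the median shift, the all-array filter, the probe-by-probe test and the variance trend, and ran from 0 to 5 with an array left out. Of all genes, 1884 were called, 843 with no filter, and 247 to 6168 with an array left out. In fits that leave out an array, the lone sample of a genotype is assumed to vary like the other. With no background filter, Abca3, Abca16, Abcc2, Abcc5 and Abcc8 lost their call (limma adjusted p = 0.0628 for each), and Abcb1b, Abcb4 and Abcc1 kept it. The counts with no filter thus include ABC genes that were not called in the reported fit.

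Values that changed sign all belonged to genes never called in the reported fit. With normexp correction Abcb8 was -0.00095, Abcc4 -0.040, Abcd3 0.14 and Abcg2 0.14. With probes averaged Abcb10 was -0.33. With each array left out in turn, Abcd3 ran from -0.36 to 0.086 and Abce1 from -0.015 to 0.31, each changing sign without WT replicate 1. Abca8a ran from -2.03 to 0.60 and changed sign without WT replicate 2 and without IKKb(EE)IEC replicate 1 (0.43). The cause of these changes was not tested. Over 23 of the 25 genes and all alternatives, 267 values kept direction and side of the threshold, 22 lost a call and 18 gained it.

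The replicate block gave 7 ABC genes higher and 1 lower, and 1501 genes in all. It changed no ABC call. The labels tie the replicate numbers to no shared animal or day, and the correlation of replicate 2 minus replicate 1 between genotypes was 0.108 across genes. Normexp correction moved the median difference of all genes from -0.12 to -0.012. Signal over background limits the dim genes: 6 of the 25 were not well above background on every array.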
